A study of Mus musculus with 3 samples.

Results

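The genes described here are ligands, receptors and cytoplasmic parts of the growth factor, Wnt, TGF-beta, Notch and hedgehog pathways, with the receptor activity-modifying proteins (Ramp). They were chosen by the start of the gene symbol in the platform annotation (Wnt, Fzd, Fgf, Bmp, Tgf, Smad, Notch, Pdgf and others), which found 99 of the 12336 probes with 1 symbol, or 65 of 7984 genes. The rule also takes in 8 genes that were grouped, from their symbols alone, as only sharing a pathway member's name, such as Jagn1 and Igf2bp1. These name-sharing genes are kept apart below. Tgfbrap1, which binds TGF-beta receptors, was put in this group, while the secreted modulators Hgfac, Bmper and Fgfbp3 and the cadherin catenin Ctnna1 were not. Purchased mouse liver total RNA, labelled with Cy5, was compared with Universal Mouse Reference RNA (UMRR), a purchased mixture that pools RNA of mouse cell lines, labelled with Cy3, on 3 arrays. The strain, age and sex of the livers are not given in the labels. Each RNA is 1 catalogue product and no dyes were swapped, so the arrays repeat 1 pair of RNAs, p-values take in only array-to-array spread, which may be technical, and any dye bias stays in the ratios.

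In these pathways a secreted or membrane-bound ligand binds a receptor at the cell surface, and the signal passes through a small number of cytoplasmic proteins to the nucleus. Wnt ligands act through Frizzled receptors, dishevelled and beta-catenin, ligands of the TGF-beta family act through paired kinase receptors and Smad proteins, and growth factors act through receptor tyrosine kinases and adaptors. In liver, Wnt signals set the zones of the lobule, FGF hormones act on bile acid and energy metabolism, and HGF drives regrowth.

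Each value is the log2 ratio of liver over UMRR as deposited, so that a positive value is higher in liver and a value of 1 is a 2-fold difference. The log base is not stated. Base 2 was taken, and under natural logs the values would have to be multiplied by 1.44. The sign was read from hepatocyte secretory genes, of which 4 of 6 on the array were measured and stood between 4.01 and 5.17. Genes of pancreatic acinar cells were also high in the liver channel, with 7 of 8 called higher and a median of 4.21, and 4 of 4 measured genes of cycling cells were lower, with a median of -3.10. Array 1 stood apart, since its ratios differed from those of arrays 2 and 3 with an SD over genes of 0.427 and 0.383, against 0.215 between arrays 2 and 3. Among the 39 signalling genes measured on all arrays, these SDs were 0.396, 0.389 and 0.261. Their signs matched in 30 genes for arrays 1 and 2, 31 for 1 and 3 and 30 for 2 and 3. By sign, array 1 therefore did not stand apart among these genes. In a bulk RNA sample, fewer cells of a type and less RNA per cell cannot be told apart.

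An exact 0 was read as no measured ratio. It was listed on all 3 arrays for 32 of the 99 probes (32.3%), against 16.3% of all probes with 1 symbol. Of the 99 probes, 45 were measured on every array (45.5%), against 62.7% of all such probes. At the level of genes, 39 of 65 had a probe measured on all 3 arrays, 8 on 2 arrays, 6 on 1 array and 12 on none. The 12 genes listed at 0 throughout were the ligands Wnt2, Wnt5b, Wnt6, Fgf3 and Fgf10, the receptors Fzd9, Acvrl1, Bmpr1a and Ptch1, and Smad4, Smad5 and Grb7. What gave the zeros is not stated, so they show neither presence nor absence of the RNA. The counts below cover the 39 measured genes and do not stand for all 65.

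To show the sequence next to the genes at both ends of the range, the 250 bases before the start are printed for the 2 highest and the 2 lowest called genes that have an entry in the promoter table (RefSeq, GRCm38.p6). Capitals mark the TATA box TATAAA, the E box CACGTG, the letters GTTAAT from the site of the hepatic factor HNF1 and the GC box GGGCGG, each searched on both strands.
Fgf21, chr7:45615491-45615740, minus strand: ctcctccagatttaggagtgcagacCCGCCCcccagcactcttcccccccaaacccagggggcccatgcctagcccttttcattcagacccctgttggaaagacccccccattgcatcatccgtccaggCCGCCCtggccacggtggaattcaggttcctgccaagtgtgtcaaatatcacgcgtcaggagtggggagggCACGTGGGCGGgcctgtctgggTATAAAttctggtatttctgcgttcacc
Hgfac, chr5:35041259-35041508, plus strand: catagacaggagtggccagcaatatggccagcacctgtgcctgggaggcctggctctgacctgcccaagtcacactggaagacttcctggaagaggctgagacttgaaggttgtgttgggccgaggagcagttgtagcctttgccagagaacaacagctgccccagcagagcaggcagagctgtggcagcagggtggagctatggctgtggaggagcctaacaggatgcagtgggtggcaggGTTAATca
Pdgfra, chr5:75152001-75152250, plus strand: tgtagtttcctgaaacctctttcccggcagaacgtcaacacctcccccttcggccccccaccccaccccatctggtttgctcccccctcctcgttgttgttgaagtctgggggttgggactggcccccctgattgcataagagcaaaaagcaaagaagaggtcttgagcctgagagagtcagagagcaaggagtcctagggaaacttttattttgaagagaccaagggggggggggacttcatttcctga
Igf1r, chr7:67952007-67952256, plus strand: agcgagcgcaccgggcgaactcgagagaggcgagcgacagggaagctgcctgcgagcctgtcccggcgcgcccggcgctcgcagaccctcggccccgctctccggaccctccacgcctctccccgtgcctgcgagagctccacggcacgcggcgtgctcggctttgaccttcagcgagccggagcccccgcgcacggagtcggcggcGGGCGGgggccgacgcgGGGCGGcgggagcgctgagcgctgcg
The Fgf21 window held a TATA box 28 bases before the start, an E box at 50 bases that shares 1 base with a GC box at 45, and 2 further GC boxes. The Hgfac window held GTTAAT at 8 bases and 1 CpG. The Pdgfra window held none of these letters and 4 CpGs, and the Igf1r window held 2 GC boxes and 42 CpGs. Over all 32851 windows of this length, 12.4% held TATAAA, 6.02% CACGTG, 6.43% GTTAAT and 32.7% GGGCGG, and the median CpG count was 6 (quartiles 2 and 16). Among measured genes with a window, the median CpG count was 10 for the 8 called higher in liver (range 1 to 22), 18.5 for the 8 called lower (range 2 to 42) and 19 for the 15 not called (range 4 to 46), which is a description with no test.

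In the limma fit across all 5520 measured genes, at a Benjamini-Hochberg adjusted p of 0.05, 18 of the 39 signalling genes were called (46.2%), against 64.0% of all genes. Of these, 8 were higher in liver (20.5%, against 30.1% of all genes) and 10 were lower (25.6%, against 33.9%). On each of the 3 arrays, a difference of 2-fold or more to the same side was seen for 7 of 39 (17.9%, against 19.0% of all genes), namely Fgf21, Hgfac and Eng on the liver side and Fgfr1, Igf2bp1, Igf1r and Pdgfra on the UMRR side. The median log2 ratio of the 39 genes was -0.14, against -0.03 for all genes, and the median size of a ratio, without its sign, was 0.27 against 0.48. Without the name-sharing genes, 12 of 31 were called (38.7%), 6 in each direction (19.4%). The share called was thus below that of all measured genes in each direction, and 21 of the 39 genes were not told apart from a ratio of 1.

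**Figure D1:**
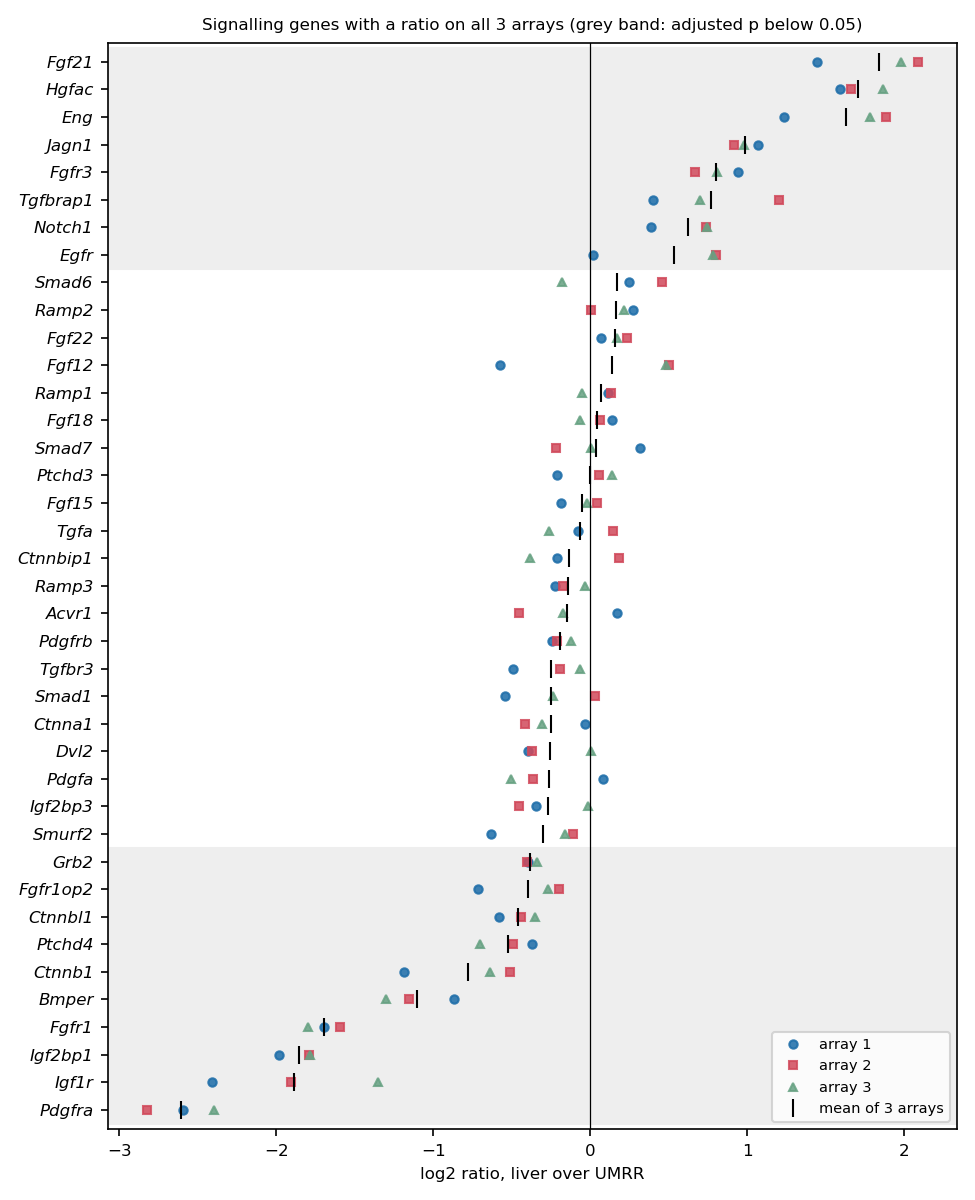
Log2 ratio of liver over UMRR (horizontal axis) of the 39 signalling genes with a ratio on all 3 arrays, ordered by mean; points are single arrays, ticks are means and grey bands mark the 18 genes with an adjusted p below 0.05. Fgf21, Hgfac and Eng stand at the top with means between 1.63 and 1.84, and Pdgfra at the bottom at -2.61.

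**Figure D2:**
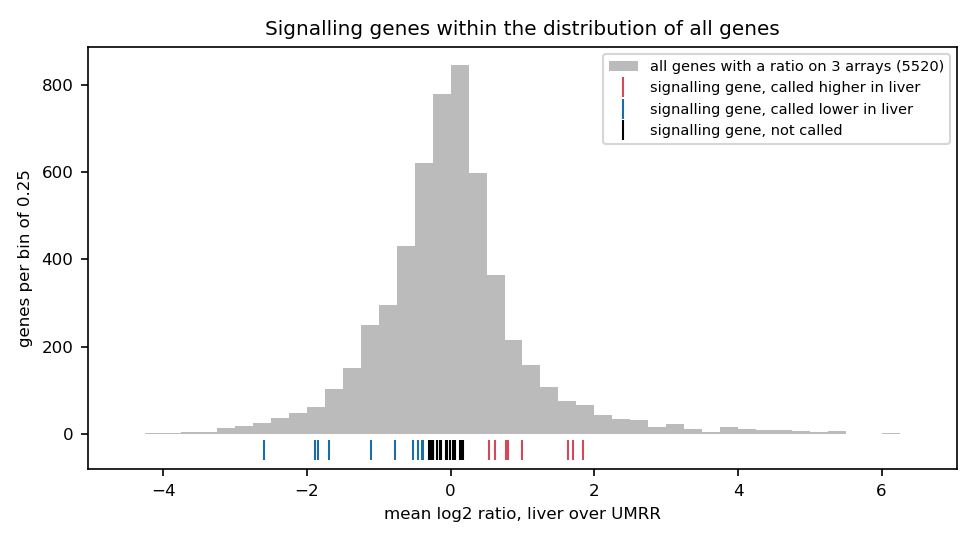
Number of genes per bin of mean log2 ratio of liver over UMRR for all 5520 measured genes (grey), with the 39 signalling genes as ticks under it, coloured by call. The signalling genes lie between -2.61 and 1.84, inside the range of all genes, which runs from -4.27 to 6.14.

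Of the 5 measured genes grouped as FGF ligands, which include the intracellular Fgf12, 1 was called (20%, against 64.0% of all genes). Fgf21, a hormone that liver releases in fasting, had the highest mean ratio of all 39 genes, from probes measured on every array. It stood at 1.45, 2.09 and 1.98 on arrays 1, 2 and 3, a mean of 1.84 ± 0.345 (SD, n = 3 arrays). It was thus 3.58-fold higher in liver, with an adjusted p in limma of 9.02e-05, and lay at percentile 94.9 of all genes. Every array gave the same side. Fgf21 is also made by acinar cells of the pancreas, and the acinar genes Reg2, Try4 and Ctrb1 stood at 5.55, 5.38 and 4.86 in the same channel. Of the 8 measured acinar genes, Cel alone was not called (0.22, adjusted p = 0.0821 in limma). Their part in the Fgf21 ratio was not tested.

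The other measured genes of this group did not pass. Fgf15, the mouse counterpart of human FGF19 and a signal of the ileum to the liver, stood at -0.18, 0.04 and -0.02, with 2 probes that lay within 0.010 of each other. Fgf18, a ligand of bone and cartilage, stood at 0.14, 0.06 and -0.07, and Fgf22 at 0.07, 0.24 and 0.17. Each of these 3 genes lay close to a ratio of 1 on every array. A further probe of Fgf22, at exact 0 on array 2, gave 0.24 on array 1 and 0.75 on array 3. Fgf12, which acts inside the cell on sodium channels, was split by array, at -0.57 on array 1 against 0.50 and 0.48 on arrays 2 and 3. With all 3 arrays its adjusted p in limma was 0.615, and without array 1 it was called higher (0.49, adjusted p = 0.000831).

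The measured FGF receptors, which are tyrosine kinases, went opposite ways. Fgfr3 stood at 0.94, 0.67 and 0.80 and was 1.75-fold higher in liver, at 0.80 ± 0.138 (SD, n = 3), with an adjusted p in limma of 0.000663. Fgfr1 stood at -1.70, -1.59 and -1.80 and was 3.24-fold lower, at -1.70 ± 0.104, with an adjusted p of 2.43e-05. No array of the one gene overlapped with any of the other. Fgfr2 had a ratio on array 3 only (0.73).

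Among receptors of the TGF-beta family, 1 of 3 measured genes was called (33.3%, against 64.0% of all genes). Eng encodes endoglin, a coreceptor for ligands of this family that marks endothelium. It stood at 1.23, 1.88 and 1.78, a mean of 1.63 ± 0.350 (SD, n = 3), or 3.10-fold higher in liver, with an adjusted p in limma of 0.000156. The endothelial list had 1 gene on the array, Flt1, a receptor for VEGF, at 0.06 with an adjusted p of 0.611. Endothelial RNA could therefore be read from 1 gene only, and its part in the Eng ratio was not tested. Tgfbr3, the coreceptor betaglycan, stood at -0.49, -0.19 and -0.07, and Acvr1, a type I receptor for BMPs, at 0.17, -0.45 and -0.17. Neither passed with all arrays, and without array 1 Acvr1 was called lower (-0.31, adjusted p = 0.0194 in limma).

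The largest ratio among genes measured on only part of the arrays belonged to Bmpr1b, another type I receptor for BMPs, at 3.68 on array 2 and 3.06 on array 3, with an exact 0 on array 1. Both values exceed every gene ratio in the plot of the 39 genes, though a probe of Hgfac with no ratio on array 3 reached 3.11 on array 2. Tgfbr1, the type I receptor for TGF-beta itself, had a ratio on array 3 only (-1.06), and its other 2 probes were listed at 0 throughout. Bmpr2, a type II receptor, had a ratio on array 2 only (-0.48), and Acvr2b, a type II receptor for activins, stood at 0.90 on array 1 and 0.08 on array 3.

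None of the 4 measured genes of the Smad and Smurf group was called (0%, against 64.0% of all genes). Smad1, which carries BMP signals, stood at -0.54, 0.03 and -0.24, with a mean of -0.25 and a 95% interval from -0.57 to 0.07. The inhibitory Smad6 stood at 0.24, 0.46 and -0.18 and the inhibitory Smad7 at 0.31, -0.22 and 0.01, with intervals from -0.17 to 0.51 and from -0.27 to 0.34. Smurf2, a ubiquitin ligase that acts on receptors and Smads, stood at -0.63, -0.11 and -0.16, with an interval from -0.62 to 0.02. In this group the arrays differed among themselves by as much as the means differed from 0, and the intervals reached as far as -0.62. Smad2, which carries TGF-beta and activin signals, was lower where it was measured, at -1.21 on array 1 and -1.54 on array 3.

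Among regulators secreted into the matrix or the blood, both measured genes were called (100%, against 64.0% of all genes). Hgfac, a serine protease made by liver that activates HGF, stood at 1.59, 1.66 and 1.86, a mean of 1.70 ± 0.141 (SD, n = 3), or 3.26-fold higher in liver, with an adjusted p in limma of 2.90e-05. Its other probe gave 1.90 and 3.11 on arrays 1 and 2 and an exact 0 on array 3. With this probe let in, the mean of Hgfac was 2.00, above the 1.84 of Fgf21. Where zeros were kept and read as ratios of 1, the mean of Hgfac was 1.69 and its call was lost (adjusted p = 0.0804). Bmper, which binds BMPs outside the cell, stood at -0.86, -1.15 and -1.30, a mean of -1.11 ± 0.221, or 2.15-fold lower, with an adjusted p of 0.000299. Fgfbp3, a carrier of FGFs, was also below 0 where it was measured, at -0.72 on array 2 and -1.42 on array 3.

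Receptors for PDGF and IGF gave the lowest values. Pdgfra, a receptor tyrosine kinase of mesenchymal cells, stood at -2.60, -2.82 and -2.40, a mean of -2.61 ± 0.214 (SD, n = 3), or 6.09-fold lower in liver, with an adjusted p in limma of 9.29e-06. It lay at percentile 1.19 of all genes. Its other probe was listed at 0 throughout, and with zeros kept the mean of Pdgfra was -1.30. Pdgfrb, its paralog, which marks stellate cells and pericytes, stood at -0.24, -0.21 and -0.12 and did not pass (adjusted p = 0.112). The arrays of the 2 receptors did not overlap. The ligand Pdgfa stood at 0.08, -0.37 and -0.51, and was called lower only without array 1 (-0.44, adjusted p = 0.00205). Markers of stellate cells and fibroblasts went both ways, with Reln (3.02) and Lum (2.08) higher in liver and Acta2 (-1.22) and Col3a1 (-1.70) lower, and their part in the Pdgfra ratio was not tested.

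Igf1r, the receptor for IGF1, stood at -2.41, -1.90 and -1.35, a mean of -1.89 ± 0.527 (SD, n = 3), or 3.70-fold lower in liver, with an adjusted p in limma of 0.000288. Its arrays spread more widely than those of Pdgfra or Fgfr1, yet each lay below -1. Without moderation of the variance its adjusted p was 0.0594. The other probe of Igf1r was listed at 0 throughout, and with zeros kept its mean was -0.94. The 4 measured genes of cycling cells, which are abundant in cell lines, stood between -4.15 for Cdk1 and -2.51 for Ccnb2, and their part in the Igf1r, Fgfr1 and Pdgfra ratios was not tested.

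Of the ErbB group, Egfr, the receptor for EGF, stood at 0.02, 0.80 and 0.78, a mean of 0.53 ± 0.448 (SD, n = 3). It passed with all 3 arrays (adjusted p = 0.0344 in limma) but lost its call when array 2 (0.40, adjusted p = 0.136) or array 3 (0.41, adjusted p = 0.147) was left out. Of its 4 probes, 2 were listed at 0 throughout and another had a ratio on array 3 only (1.98). The Egfr ligand Tgfa stood at -0.08, 0.15 and -0.26 and did not pass. Notch1, the receptor of the Notch pathway, stood at 0.38, 0.74 and 0.74 and was 1.54-fold higher in liver (0.62 ± 0.205, adjusted p = 0.00341), on 1 of 3 probes, since the other 2 were at 0 throughout. The call of Notch1 was lost with zeros kept (adjusted p = 0.0533) and without moderation of the variance (adjusted p = 0.0717). The Notch ligand Jag1 stood at -0.13 on array 1 and -0.12 on array 3, with an exact 0 on array 2.

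Grb2, the adaptor that joins receptor tyrosine kinases to Ras, was measured by probes that disagreed. The probe with a ratio on all arrays stood at -0.40, -0.40 and -0.34, a mean of -0.38 ± 0.034 (SD, n = 3), and was called lower (adjusted p = 0.0105 in limma). The other probe stood at 1.51 and 1.15 on arrays 1 and 2 and at exact 0 on array 3. With this probe let in, the mean of Grb2 turned to 0.20 (adjusted p = 0.401), and with zeros kept to 0.25 (adjusted p = 0.458). Leaving out array 2 (-0.37, adjusted p = 0.0748) or array 3 (-0.40, adjusted p = 0.0869) also ended the call. The direction of Grb2 is therefore uncertain.

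Of the Wnt pathway, none of 7 ligands and none of 3 Frizzled receptors had a ratio on all arrays. Wnt10a was the ligand farthest from 0, at -1.76 on array 1 and -2.60 on array 2. Wnt4 had 4 probes, of which one was listed at 0 throughout, one gave a ratio on array 2 only (1.18), and the others gave 0.15 and 0.22 on array 2 and -0.05 and -0.42 on array 3. The probes of Wnt4 thus gave no common direction. Wnt5a had a ratio on array 1 only (0.21) and Wnt7b on array 2 only (0.02). Fzd3 stood at 0.79 on array 1 and -0.14 on array 3, and Fzd7 at -0.55 on array 2.

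**Figure D3:**
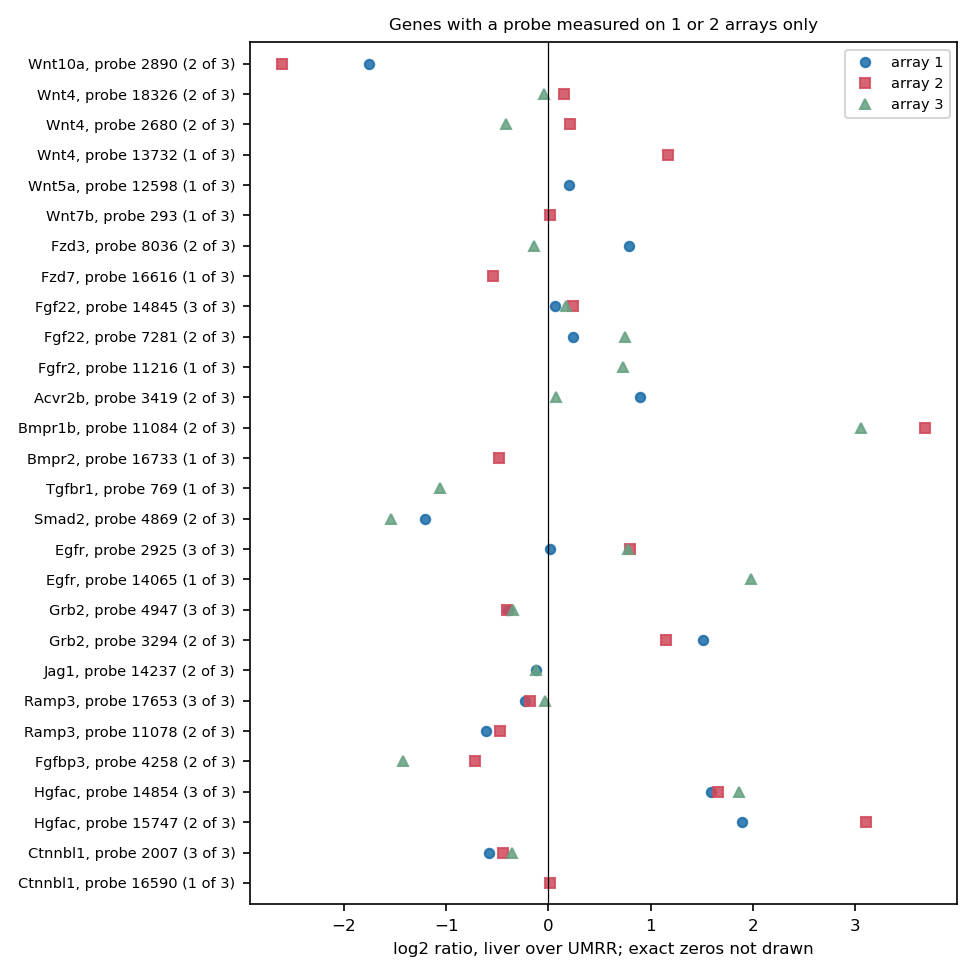
Log2 ratio of liver over UMRR (horizontal axis) of every probe with a ratio on at least 1 array, for genes with a probe measured on 1 or 2 arrays only; points are single arrays and exact zeros are not drawn. Bmpr1b stands at 3.68 and 3.06, and the 2 probes of Grb2 lie on opposite sides of 0.

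Downstream of the Wnt receptors, Ctnnb1, which encodes beta-catenin, was lower in liver on every array. It stood at -1.19, -0.51 and -0.64, a mean of -0.78 ± 0.360 (SD, n = 3), or 1.72-fold lower, with an adjusted p in limma of 0.00430. Its other probe was listed at 0 throughout, and the call was lost without moderation of the variance (adjusted p = 0.110) and with zeros kept (-0.39, adjusted p = 0.0904). Ctnnbip1, an inhibitor of beta-catenin, stood at -0.21, 0.19 and -0.39, and Dvl2, a dishevelled protein, at -0.39, -0.37 and 0.00; neither passed. Ctnna1, the alpha-catenin that ties cadherins to actin, had 3 measured probes with means of -0.13, -0.21 and -0.42. The mean of these probes was -0.03, -0.42 and -0.31 on the 3 arrays and did not pass (adjusted p = 0.0884), while without array 1 it was called lower (-0.36, adjusted p = 0.00503).

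None of the 3 Ramp genes, whose proteins set which peptides of the calcitonin family a shared receptor binds, was called. The share called was thus 0%, against 64.0% of all genes. Ramp1 stood at 0.11, 0.13 and -0.05, Ramp2 at 0.27, 0.01 and 0.21, and Ramp3 at -0.23, -0.18 and -0.03. These values lay near 0 on every array. A further Ramp3 probe stood at -0.61 and -0.48 on arrays 1 and 2, with an exact 0 on array 3, and the 2 probes of Ramp2 had means of 0.00 and 0.33. The hedgehog receptor Ptch1 was listed at 0 throughout.

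Of the 8 name-sharing genes, 2 were higher (25%, against 30.1% of all genes), 4 were lower (50%, against 33.9%) and 2 were not called. Igf2bp1, an RNA-binding protein of fetal tissue and tumours, stood at -1.98, -1.79 and -1.78, a mean of -1.85 ± 0.114 (SD, n = 3), or 3.61-fold lower in liver (adjusted p = 1.86e-05 in limma). Its paralog Igf2bp3 stood at -0.34, -0.45 and -0.01 and did not pass, so the 2 paralogs did not overlap on any array. Jagn1, a protein of the endoplasmic reticulum that serves secretion, stood at 1.07, 0.92 and 0.98 and was 1.98-fold higher (adjusted p = 0.000190), with 2 probes within 0.009 of each other. Tgfbrap1, which binds TGF-beta receptors and tethers vesicles, stood at 0.40, 1.20 and 0.70, with an adjusted p in limma of 0.00652. It was not called with zeros kept (adjusted p = 0.114) or without moderation of the variance (adjusted p = 0.132). Lower, by less, were Ctnnbl1, a protein of the spliceosome (-0.46), Ptchd4 (-0.52) and Fgfr1op2 (-0.39). The last 2 lost their calls without array 3 (Ptchd4 at -0.43, adjusted p = 0.0683; Fgfr1op2 at -0.46, adjusted p = 0.0799). Without moderation of the variance none of these 3 passed, with adjusted p-values of 0.0517 for Ctnnbl1, 0.0689 for Ptchd4 and 0.193 for Fgfr1op2. With zeros kept, Fgfr1op2 lost its call as well (adjusted p = 0.184 in limma). A further probe of Ctnnbl1 had a ratio on array 2 only (0.02), where the probe measured on all arrays gave -0.44. The probes of Ptchd3 disagreed, with means of -0.38 and 0.37.

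Genes that work with these pathways but are not among the 65 were read from lists, chosen with earlier results of these data known. The array held 16 of 34 Wnt partners, 12 of 26 TGF-beta partners, 10 of 23 Notch partners and 19 of 39 growth factor partners. Of 12 measured Wnt partners, 3 were higher in liver and 6 lower, with a median of -0.32. The share called was 75%, against 64.0% of all genes. Wls, which carries Wnt ligands to the cell surface, stood at -3.34, -3.13 and -3.30, and was lower than any of the 39 genes (adjusted p = 3.43e-06 in limma). Csnk1e and Csnk1a1, casein kinases, stood at -1.62 and -0.90 and Apc, a part of the complex that destroys beta-catenin, at -0.71. On the other side stood Frzb, a secreted Wnt antagonist, at 0.95, 1.05 and 1.03. Of 10 measured TGF-beta partners, 2 were higher (20%, against 30.1% of all genes) and 7 lower (70%, against 33.9%), with a median of -0.52. Ltbp3, which holds latent TGF-beta in the matrix, stood at -2.66, and the corepressor Tgif1 at -1.53. Id1, a target of BMP signals, stood at -2.28, while its relative Id3 was lower by less (-0.44) and Id2 was higher (0.33). Zfyve9, which brings Smads to the receptor, stood at 0.87 and was higher.

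Of 5 measured Notch partners, 2 were higher and 2 lower, so that 80% were called, against 64.0% of all genes. Hes6, a relative of the Hes targets of Notch, stood at 2.05, 2.08 and 2.14, and Psenen, a subunit of gamma-secretase, at 0.84. Adam10, a protease that cuts Notch, stood at -1.43 and Dlk1 at -2.91. Of 11 measured growth factor partners, 4 were higher and 2 lower, with a median of 0.06 and 54.5% called, against the same 64.0%. Igfbp2 and Igfbp3, which bind IGFs in blood, stood at 2.21 and 1.24, and Spint2, an inhibitor of the HGF activator, at 1.99, next to 1.70 for Hgfac itself. Igfbp6 stood at -2.60 and Grb10, an adaptor that restrains the insulin and IGF receptors, at -2.88, on the same side as Igf1r. None of the hedgehog and calcitonin partners had a ratio on all arrays.

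**Figure D4:**
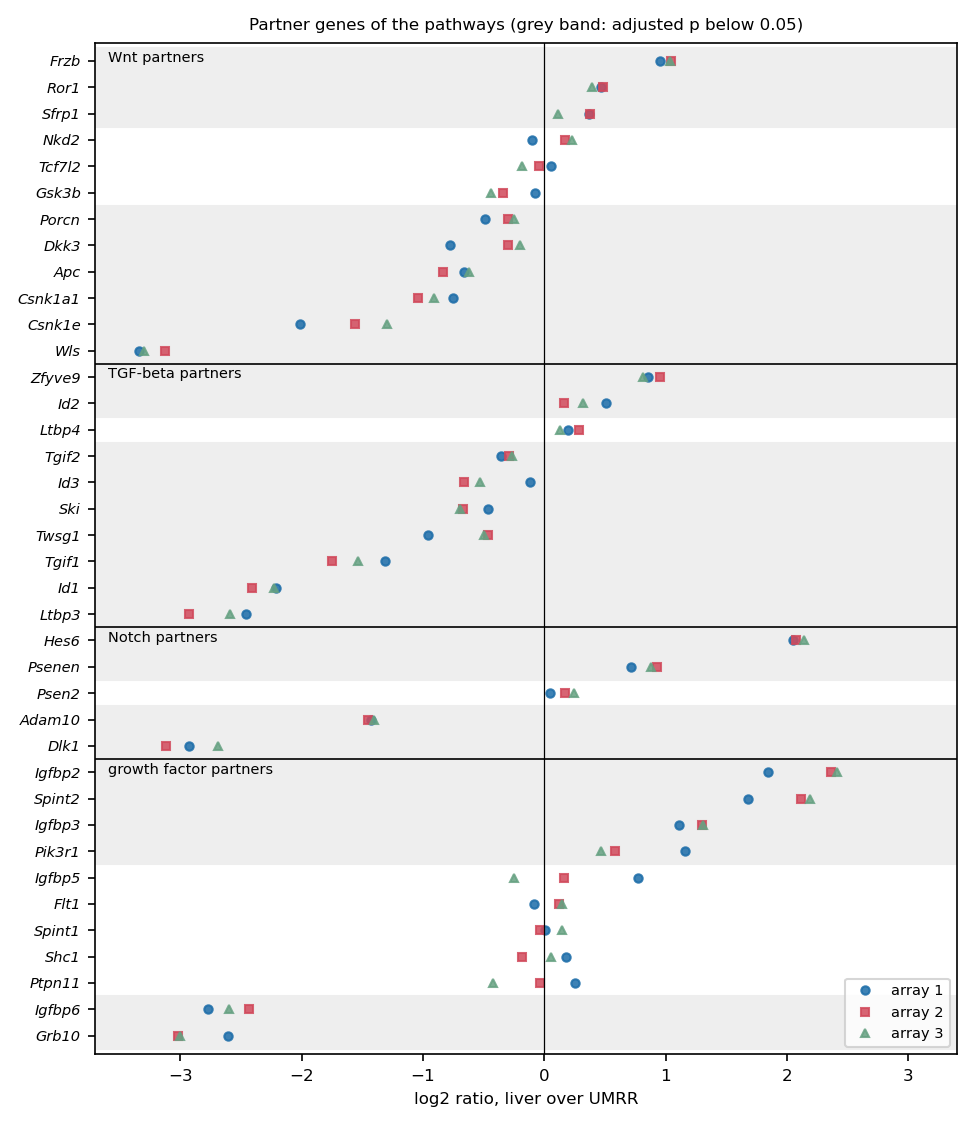
Log2 ratio of liver over UMRR (horizontal axis) of partner genes of the pathways on each array, in 4 lists divided by lines; grey bands mark genes with an adjusted p below 0.05. Wls stands lowest at a mean of -3.26, and Igfbp2 and Hes6 stand highest at 2.21 and 2.09.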

How the data were processed

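For every probe the deposited table gives a signed value on each array, taken here to be the authors' log2 ratio of Cy5 over Cy3. How the authors corrected background and normalized the dyes is not given in the sources used, and scanner intensities were not used here. Exact zeros were left out as no measured ratio, so the counts cover only measured genes. Probes were named from the platform annotation, and all 65 members matched the RefSeq gene table by gene identifier. Probes with a ratio on all 3 arrays were averaged per gene and array, which gave 5520 genes. The mean ratio of each gene was tested against 0, two-sided, by limma 3.58.1 (lmFit, then eBayes; R 4.3.3), and p-values were adjusted by Benjamini-Hochberg over all genes at a threshold of 0.05. The fit was tested on simulated data. With 3 arrays, their number limits precision.

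The members and lists were chosen with earlier results of these data known. Any measured member could be named; values on every array were given for up to 4 members of each role with the largest means and for called members that went against their group. Further members are given beyond that rule, after their values were seen. The alternatives were centring and scaling of the arrays, zeros kept as ratios of 1, probes with ratios on at least 2 arrays, the median probe, eBayes with trend and robust set, no moderation of the variance, and leaving out each array.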

Additional observations from a re-analysis of the deposited data

How the results depend on the processing

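Of the 18 called genes, 8 kept their call and sign under every alternative run, namely Fgf21, Eng, Jagn1, Fgfr3, Bmper, Fgfr1, Igf2bp1 and Pdgfra. Centring, scaling, the median probe and eBayes with trend and robust set changed no call among the 39 genes. Without moderation of the variance 5 genes were higher and 5 lower (25.6% called, against 37.8% of all genes). Where zeros were kept and read as ratios of 1, all 65 genes entered. Of these, 4 were higher and 7 lower (16.9% called, against 29.9% of all genes). Leaving out each array in turn gave 7 to 9 higher and 7 to 13 lower, the most without array 1. Without array 1, 56.4% of the 39 genes were called, against 72.5% of all genes. Without array 2 the shares were 41% and 52.8%, and without array 3 they were 35.9% and 49.9%. Grb2 turned to 0.25 with zeros kept and to 0.20 with probes on at least 2 arrays let in, where its other probe enters. That setting lets in 8 genes and gave 9 higher and 12 lower, with Bmpr1b higher (3.37) and Wnt10a (-2.18), Smad2 (-1.38) and Fgfbp3 (-1.07) lower. Of the 47 genes then tested, 44.7% were called, against 59.7% of all genes. Each ratio sets liver against UMRR on the same array, and no further pairing was possible because the arrays form 1 group. Signal over background is unknown, so dim probes could not be set apart.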
